A study of Danio rerio with 6 samples.

Results

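The 37 genes described here encode forkhead, Sox and Kruppel-like transcription factors of the zebrafish. They were taken by symbol (fox, sox or klf followed by the family's number, with foxm1 and klf1 left out) from the 10067 genes that at least 1 of 6 deposited peak lists ties to a peak. There were 16 forkhead, 7 Sox and 14 Kruppel-like genes, each with 1 annotated transcription start site (TSS). A family member with no peak in or near it in any list is not among the 37. All 37 matched an entry of the NCBI zebrafish gene table by gene ID, 36 under the same symbol; foxk2 is now named foxk2a.

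The study followed 2 marks on lysine 9 of histone H3, acetylation (H3K9ac) and trimethylation (H3K9me3, written H3K9M3 in the labels), in zebrafish heart tissue by chromatin immunoprecipitation and sequencing. Hearts came from fish 1 to 1.5 years old that were uncut, or at 6 or 9 days after amputation (dpa) of the tip of the ventricle. There was 1 library for each mark and time, 6 in all, so no value has a replicate and no test between times was possible. Strain, sex and the number of hearts behind a library are not given in the sources used here.

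Forkhead factors bind DNA through a winged-helix domain. The FoxO members are held in the cytoplasm when insulin signalling activates Akt and enter the nucleus when it is low, while FoxP and FoxC members are known from heart and vessel development. Sox factors carry an HMG box that bends DNA, and several of them keep progenitor cells undifferentiated or specify cartilage and neural crest. Kruppel-like factors bind GC-rich and CACCC sequences through zinc fingers; in the heart they are known from the endothelial response to flow and from the control of metabolism. H3K9ac marks the promoters of active genes, and H3K9me3 marks heterochromatin and silenced genes.

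Each list gives a peak's edges, summit, tags (sequenced reads inside the peak) and score, the peak caller's p-value on a negative log10 scale multiplied by 10. The score and the fold enrichment are the authors' values. The H3K9ac lists held 16264 peaks with 1902151 tags in the uncut library, 17525 peaks with 2066547 tags at 6 dpa and 17223 peaks with 2206341 tags at 9 dpa. The H3K9me3 lists held 4488, 6216 and 4771 peaks at the same times, with 245779, 541481 and 416546 tags. These totals are tags in peaks and not the depth of the libraries, which is unknown here. All 6 annotated cardiomyocyte marker genes had an H3K9ac promoter peak in uncut hearts and at 9 dpa, and 4 of them at 6 dpa, with summed tags of 548 uncut, 219 at 6 dpa and 581 at 9 dpa; tnnt2a and tnnc1a had none at 6 dpa. The 3 annotated endothelial markers summed to 341, 108 and 205 tags at these times, with fli1a at 0 at 6 and 9 dpa, and the 6 erythrocyte markers to 1037, 1373 and 1483 tags. Among the erythrocyte markers ba1 had 106, 137 and 0 tags and gata1a 0, 0 and 164. The 3 annotated epicardial markers summed to 0, 134 and 76 tags, the 3 fibroblast markers to 170, 245 and 196, and the 1 annotated leukocyte marker to 0, 39 and 0. None of the 5 neural and other-tissue markers was annotated. The part of the cell mixture in the values below was not tested. In whole tissue, fewer cells of a type and less of the mark per cell cannot be told apart.

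A promoter peak was any peak that overlapped the window from 2 kb before to 2 kb after the TSS. Of the 37 genes, 28 had an H3K9ac promoter peak in the uncut library, 31 at 6 dpa and 31 at 9 dpa, against 82.8%, 86.9% and 85.4% of all 10067 genes. There were 27 with such a peak in all 3 libraries, made up of 12 of 16 forkhead, 12 of 14 Kruppel-like and 3 of 7 Sox genes; the share over all genes was 79.6%. Most of these 37 genes therefore carried a called acetylated promoter in the adult heart whether or not it was cut, at about the rate of all listed genes. Family members with no peak in any list are not counted, so the share does not describe the whole families. The 4 with no H3K9ac promoter peak at any time were foxn1, which directs the thymic epithelium, foxp1b, foxp3a, the counterpart of the factor of mammalian regulatory T cells, and sox9b; over all genes 9.74% had none.

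**Figure D1:**
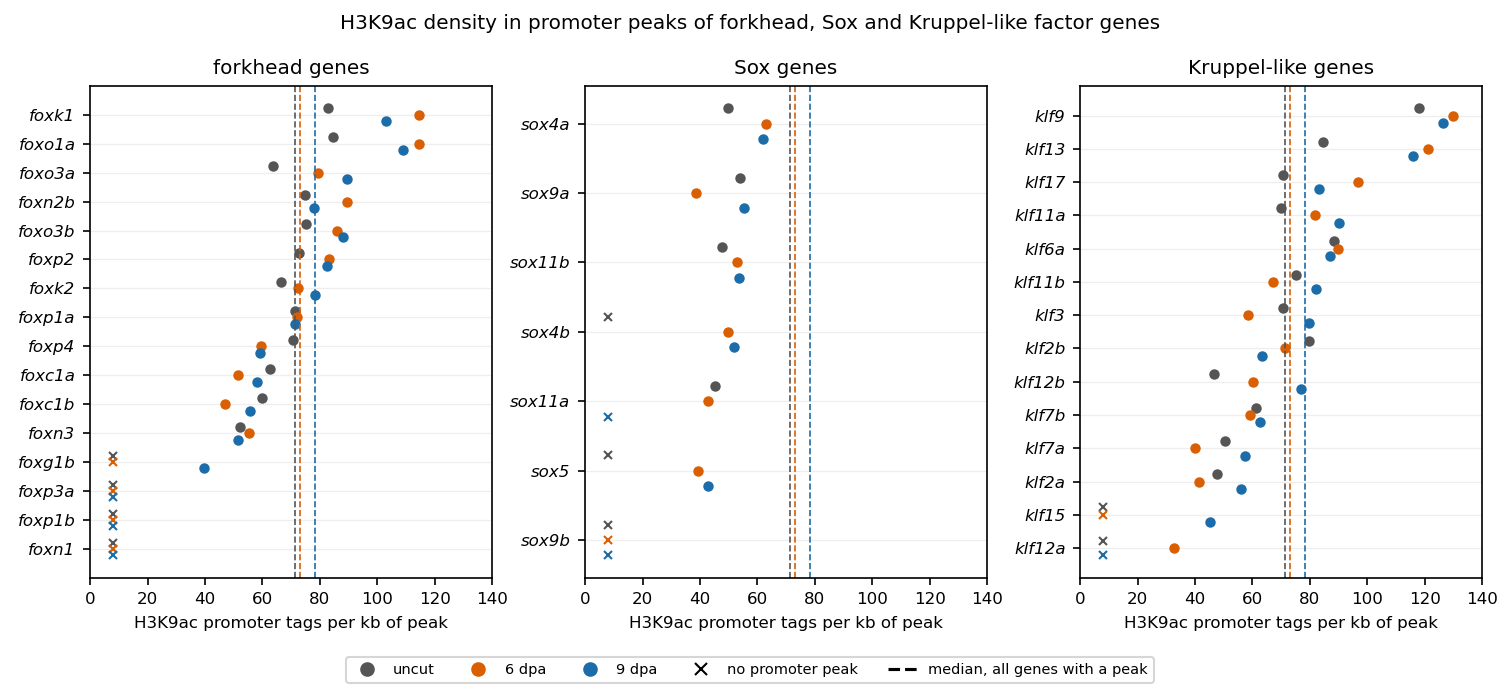
H3K9ac tags per kb of promoter peak (x axis) for each forkhead, Sox and Kruppel-like gene (rows, ordered by the highest value over the times). There is 1 point per library in uncut, 6 dpa and 9 dpa hearts, with crosses where no promoter peak was called. Dashed lines are the medians of all genes with a peak at that time (71.4, 73.0 and 78.3 tags per kb). All Sox points lie left of their own time's line, and klf9 lies farthest right.

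Changes in presence were few. At 6 dpa against uncut, sox4b, sox5 and klf12a gained a promoter peak and none of the 37 lost one; the background was 5.95% gained and 1.88% lost. At 9 dpa against uncut, sox4b, sox5, foxg1b and klf15 had gained a peak and sox11a had lost one, with a background of 4.64% and 2.06%. At 9 dpa against 6 dpa, foxg1b and klf15 gained a peak and klf12a and sox11a lost theirs, with a background of 2.69% and 4.18%. The share of the 37 genes that gained a peak was 8.11% at 6 dpa and 10.8% at 9 dpa over uncut, and it rests on 3 and 4 genes. Genes entered the set through a peak in any list. For sox5, klf12a, foxg1b and klf15 the peaks absent from the uncut list were the only peaks found. For sox4b the only other peak was an H3K9me3 promoter peak at 6 dpa. No gene that gained a peak over uncut therefore had an uncut peak through which to enter. The entry rule thus bears on the whole of this share, which cannot be read as a gain particular to these families.

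Among these genes sox4b had the peak with the highest score. It is a SoxC gene of progenitor cells (chromosome 16, 68068 to 71110, danRer10), with no H3K9ac promoter peak in uncut hearts, 163 tags over 3280 bp at 6 dpa and 100 tags over 1924 bp at 9 dpa. The score was 188 at 6 dpa and 88.8 at 9 dpa, so the peak was best supported at 6 dpa. The tags at 9 dpa were lower than at 6 dpa by more than counting error (log2 change relative to the median gene -0.81, 95% interval -1.18 to -0.44), while tags per kb were nearly the same, 52.0 at 9 dpa and 49.7 at 6 dpa.

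The 2 other Sox genes of this kind followed different courses. The gene sox5, a SoxD factor known from cartilage (chromosome 4, 16996136 to 17066920), had no peak in the uncut library, 60 tags at 6 dpa and 74 at 9 dpa, with scores of 62.6 and 69.2, near the lowest score in the lists, 50. The SoxC gene sox11a (chromosome 17, 35930941 to 35934202) had 64 tags in the uncut library, 79 at 6 dpa and no peak at 9 dpa, with scores of 90.4 and 175. Its peak was thus called in uncut and 6 dpa hearts and absent from the 9 dpa list.

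One forkhead and 1 Kruppel-like gene were marked at 9 dpa only. The gene foxg1b, whose relatives pattern the forebrain (chromosome 11, 42822026 to 42824169), had 54 tags at 9 dpa with a score of 84.4, and klf15, known in mouse heart for the control of fuel metabolism (chromosome 23, 35088772 to 35096975), had 84 tags with a score of 89.1. The repressor gene klf12a (chromosome 1, 33764434 to 33824150) had a peak at 6 dpa only, of 71 tags and a score of 95.3. A missing peak means that nothing passed the caller's threshold, not that the mark was absent.

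The forkhead genes with the most tags in their promoter peaks were foxo3b, foxo3a and foxk1. The gene foxo3b (chromosome 20, 32383903 to 32429857) had 275 tags in the uncut library, 363 at 6 dpa and 373 at 9 dpa, and its duplicate foxo3a (chromosome 17, 6635770 to 6653555) had 272, 338 and 313. FoxO3 factors drive stress-resistance and cell-death genes when insulin signalling is low. By mean width over the 3 times they had the widest forkhead peaks, 3651, 4214 and 4234 bp for foxo3b and 4280, 4260 and 3496 bp for foxo3a, and tags per kb lay between 63.6 and 89.5, near the median gene.

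Per kb, foxk1 and foxo1a led the forkhead genes. The gene foxk1, a regulator of glucose metabolism in mammalian cells (chromosome 3, 40760204 to 40791104), had 213 tags in the uncut library, 323 at 6 dpa and 311 at 9 dpa, which is 82.9, 114 and 103 tags per kb. The insulin-restrained foxo1a (chromosome 15, 3297177 to 3385473) had 191, 306 and 257 tags, or 84.5, 114 and 109 per kb. Both were lowest in the uncut library and highest at 6 dpa, on both scales. Relative to the median gene, foxk1 was higher at 6 dpa than in uncut hearts by log2 0.49 (95% interval 0.23 to 0.74) and foxo1a by 0.57 (0.30 to 0.83), neither reaching 1.5-fold.

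Among the FoxP and FoxC genes, foxp1a, of a factor needed in mouse heart development (chromosome 23, 10703449 to 10787730), had 128 tags in the uncut library, 92 at 6 dpa and 148 at 9 dpa, with peak widths of 1793, 1278 and 2078 bp. The 6 dpa library was thus the low one in tags and in width, and tags per kb were flat at 71.4, 72.0 and 71.2. In all 3 libraries the foxp1a promoter peak is also annotated to eif4e3. At 6 dpa over uncut the log2 change in tags was -0.59 (-0.99 to -0.19) and that per kb -0.06. It was -0.10 when scaled to the library background and -0.48 with no scaling, neither past 1.5-fold. The developmental vascular genes foxc1a (chromosome 2) and foxc1b (chromosome 20) are short, and their peaks reached 2882 and 1771 bp past the TSS already in uncut hearts, over the annotated 3′ UTR. Tags of foxc1b were 115, 162 and 147, with widths of 1922, 3459 and 2640 bp, so that the larger 6 dpa value came with a wider peak and fewer tags per kb, 46.8 at 6 dpa against 59.8 uncut. The remaining forkhead genes, foxc1a, foxk2, foxn2b, foxn3, foxp2 and foxp4, had 74 to 232 tags over the 3 times, and none of them changed beyond counting error between any pair of times.

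The Sox promoters were the least dense of the 3 families. Per kb, 0 of the 4 Sox peaks in uncut hearts, 0 of 6 at 6 dpa and 0 of 5 at 9 dpa exceeded the median gene; the family medians were 48.7, 46.3 and 53.7 tags per kb against 71.4, 73.0 and 78.3 for all genes. Among forkhead genes 6 of 12, 6 of 12 and 5 of 13 exceeded the median gene, and among Kruppel-like genes 5 of 12, 5 of 13 and 7 of 13. Per kb the Sox genes thus sat low in every library, while the forkhead and Kruppel-like genes lay on both sides of the median.

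The Sox gene with the most promoter tags was sox4a, the duplicate of sox4b (chromosome 19, 29201925 to 29205186), with 123 tags in the uncut library, 208 at 6 dpa and 197 at 9 dpa. The uncut value is the low one. The uncut peak began 770 bp inside the gene and ran to 3246 bp, and was the only H3K9ac promoter peak of the 37 genes that did not cover its TSS; at 6 and 9 dpa the peak covered the TSS. Relative to the median gene, tags were higher at 6 dpa than in uncut hearts by log2 0.64 (0.32 to 0.98, or 1.56-fold) and at 9 dpa by 0.46 (0.13 to 0.80). Per kb the same changes were 0.27 and 0.18. The SoxC gene sox11b (chromosome 20, 30129756 to 30132413) had 122, 113 and 104 tags, with a log2 change of -0.45 at 9 dpa over uncut (-0.84 to -0.06), and 47.8, 52.8 and 53.7 tags per kb.

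The densest single peaks and many of the widest were at Kruppel-like genes, although per kb the family lay on both sides of the median gene. The gene klf9, a glucocorticoid-induced factor in zebrafish (chromosome 5, 25475133 to 25477969), had 304 tags in the uncut library, 356 at 6 dpa and 403 at 9 dpa, or 118, 130 and 126 per kb. It was the densest of the 37 genes in every library. The gene klf13, whose Xenopus counterpart works with GATA factors in heart development (chromosome 25, 34047082 to 34071480), had 267, 404 and 363 tags, or 84.8, 121 and 116 per kb. It was lowest in the uncut library on both scales, and its 6 dpa value was higher than uncut by log2 0.48 (0.26 to 0.71) relative to the median gene. The gene klf17, active in the zebrafish hatching gland and early blood (chromosome 2, 33343318 to 33345470), had 292, 288 and 365 tags with widths of 4127, 2974 and 4379 bp.

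The TGF-beta-inducible pair klf11a and klf11b, the repressor gene klf3, and klf6a, known from zebrafish liver development, had peaks 2179 to 3903 bp wide. Tags were 262, 304 and 299 for klf11a (chromosome 20, 29599256 to 29602984), 164, 197 and 276 for klf11b (chromosome 17), 194, 185 and 251 for klf3 (chromosome 1), and 261, 342 and 340 for klf6a (chromosome 24), in uncut, 6 dpa and 9 dpa hearts. At 9 dpa klf11b was higher than in uncut hearts by log2 0.53 (0.25 to 0.82), with a wider peak (3359 bp against 2179 bp) and a per-kb change of -0.02. The repressor gene klf12b (chromosome 9, 30909301 to 30973146) had 77, 114 and 109 tags, or 46.5, 60.2 and 77.0 per kb. Its density was lowest in uncut hearts and highest at 9 dpa.

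The flow-responsive endothelial pair klf2a and klf2b differed in peak width and density. The gene klf2a (chromosome 22, 15871950 to 15874648) had 137 tags in the uncut library, 185 at 6 dpa and 151 at 9 dpa, in peaks 2865, 4475 and 2689 bp wide, and klf2b (chromosome 19) had 105, 91 and 92 tags in peaks of 1317, 1272 and 1451 bp. The broad 6 dpa peak of klf2a was the widest H3K9ac promoter peak of the 37 genes. Per kb, klf2a was lower than klf2b in every library, 47.8 against 79.7 uncut, 41.3 against 71.5 at 6 dpa and 56.2 against 63.4 at 9 dpa. The 95% counting interval of the log2 ratio of klf2a to klf2b excluded 0 in uncut hearts (-1.11 to -0.36) and at 6 dpa (-1.16 to -0.41) but not at 9 dpa (-0.56 to 0.21). Over the same times the summed tags of the endothelial markers were 341, 108 and 205; their part in these values was not tested.

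The largest change in tags was at klf7a, a gene of the neuronal factor KLF7 (chromosome 1, 5705570 to 5796397). It had 130 tags in the uncut library, 51 at 6 dpa and 84 at 9 dpa, and the uncut library is the high one. In the uncut heart the peak was 2569 bp wide with its summit at position -1233 bp, upstream of the TSS. At 6 and 9 dpa the peak was 1270 and 1460 bp wide, lay around the TSS, and had its summit 118 and 89 bp inside the gene. Relative to the median gene, the log2 change in tags over uncut was -1.46 at 6 dpa (-1.96 to -0.99) and -0.85 at 9 dpa (-1.26 to -0.44). Per kb the changes were -0.41 and 0.04. At 9 dpa the lower tag count thus went with the narrower peak, while at 6 dpa tags per kb were lower too, 40.2 against 50.6 uncut. The duplicate klf7b (chromosome 9) kept 168, 150 and 154 tags and widths between 2457 and 2746 bp, with a log2 change of -0.34 at 9 dpa over uncut (-0.67 to -0.02).

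Across the 27 genes called in all 3 H3K9ac libraries, changes were small. Tags are given relative to a median gene, taken over the 8009 genes whose promoter was acetylated in all 3 libraries; its own log2 shifts were 0.11 for 6 dpa over uncut, 0.22 for 9 dpa over uncut and 0.10 for 9 dpa over 6 dpa. The intervals cover counting error only. At 6 dpa against uncut the median member changed by log2 0.11, with forkhead genes at 0.18, Kruppel-like genes at 0.11 (turning to -0.09 per kb) and the 3 Sox genes at -0.22 (turning to 0.27 when scaled to the library background and to 0.07 per kb). Of the 27, 15 lay above the median gene. One gene, sox4a, was at least 1.5-fold higher (background 3.46%) and 2, klf7a and foxp1a, were at least 1.5-fold lower (background 7.14%). Beyond counting error 8 were higher, foxo1a, foxk1, foxc1b, foxo3b, sox4a, klf13, klf12b and klf6a (background 13.3%), and 2 lower (background 14.7%). Per kb foxc1b and klf6a turned the other way, to log2 -0.43 and -0.06. The median member had more tags than the median gene, 164 against 126 in uncut hearts, and intervals narrow with tags.

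**Figure D2:**
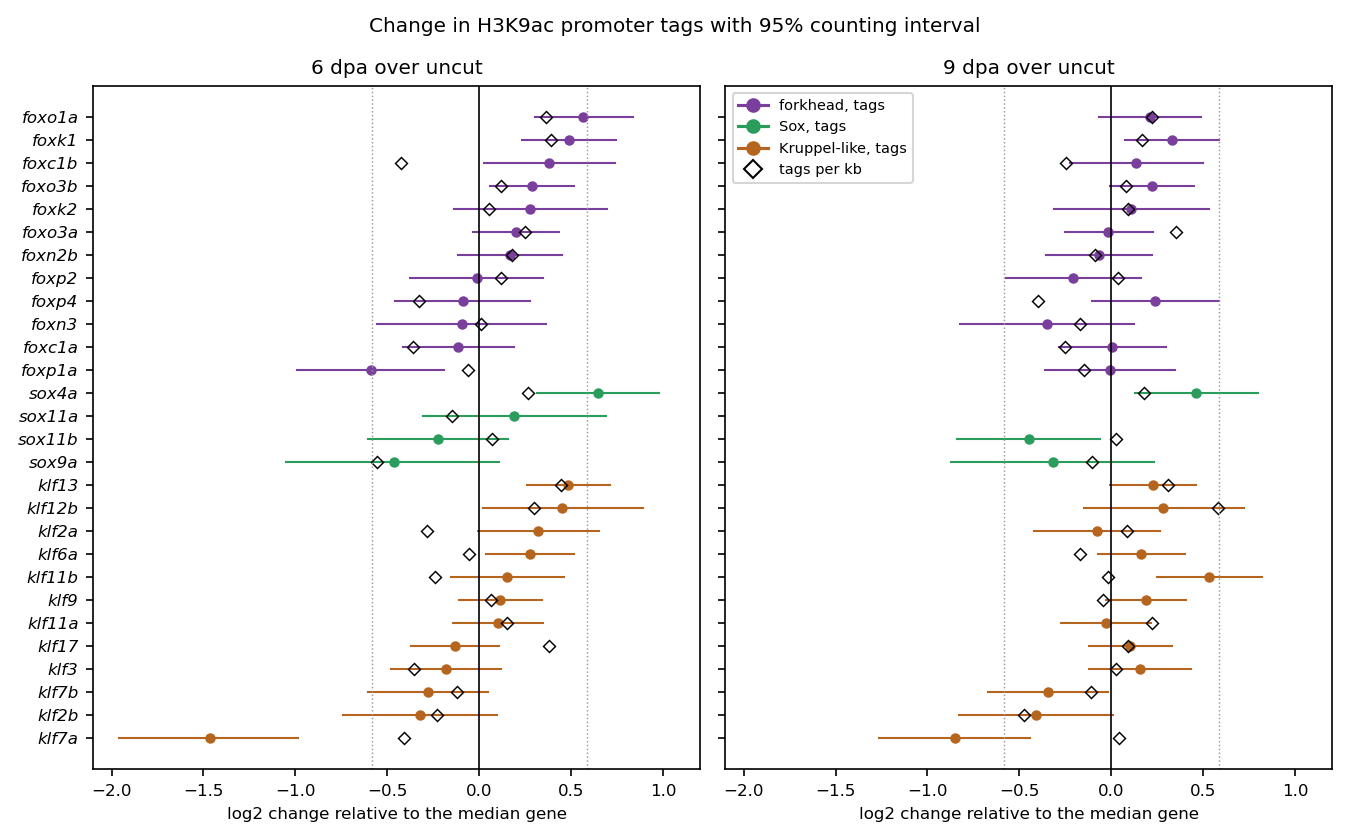
Log2 change in H3K9ac promoter tags (filled points) with its 95% counting interval (bars) and in tags per kb (open diamonds), each relative to the median gene, for genes with a peak at both times; left 6 dpa over uncut, right 9 dpa over uncut, dotted lines at 1.5-fold. In tags klf7a lies farthest left in both panels and sox4a farthest right at 6 dpa, whereas no diamond passes the 1.5-fold lines.

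At 9 dpa against uncut the median was log2 0.10, with forkhead genes at 0.06, Kruppel-like genes at 0.13 and Sox genes at -0.32, the last turning to 0.02 and the forkhead median to -0.03 per kb. None of the 27 was 1.5-fold higher (background 3.08%) and klf7a alone was 1.5-fold lower (background 2.66%). Beyond counting error foxk1, klf11b and sox4a were higher (background 9.45%) and klf7a, klf7b and sox11b lower (background 9.31%); per kb klf11b, klf7a and sox11b turned the other way, to -0.02, 0.04 and 0.02. At 9 dpa against 6 dpa the median was -0.13 and 18 of 27 lay below the median gene; klf7a was 1.5-fold higher (background 5.42%) and none 1.5-fold lower (background 1.81%). Beyond counting error foxp1a, klf7a, klf11b, klf17 and klf3 were higher (background 12.5%) and foxo1a, klf13 and klf2a lower (background 9.99%). Of these, klf17 turned to log2 -0.07 when scaled to the library background, and per kb klf17 turned to -0.29, foxp1a to -0.09 and klf2a to 0.36. The 3 comparisons share libraries, so they are not separate evidence.

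Fewer of these genes passed 1.5-fold in peak density than in tags. Per kb, none of the 27 genes passed 1.5-fold in any pair of times; the background was 1.34% higher and 2.71% lower for 6 dpa over uncut, 0.362% and 0.499% for 9 dpa over uncut, and 1.52% and 1.19% for 9 dpa over 6 dpa. Some genes still moved more per kb than in tags. The nearest to the line was klf12b at 9 dpa over uncut, with log2 0.583 per kb and 0.28 in tags. In width, foxc1b and klf2a were at least 1.5-fold wider (background 3.46%) and klf7a narrower (3.42%) at 6 dpa than uncut. At 9 dpa against uncut foxp4 was wider (3.05%) and klf7a narrower (1.74%), and at 9 dpa against 6 dpa foxp1a was wider (3.76%) and klf2a narrower (2.31%). Changes were also scaled to each library's background density (14.63 reads per kb uncut, 11.25 at 6 dpa and 15.01 at 9 dpa) in place of the median gene. The median change at 6 dpa over uncut was then log2 0.61 and 15 of 27 genes passed 1.5-fold higher, while the median of all 8009 genes moved by 0.49. That shift is itself near the 1.5-fold line, log2 0.585. The share of all genes past the line on this scale is not given here, so the 15 cannot be read as particular to these genes.

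By median, the peaks of these genes were wider than those of all genes, the Sox peaks least so. The median H3K9ac promoter peak was 2549.5 bp in the uncut library, 2674 bp at 6 dpa and 2640 bp at 9 dpa, against 1679, 1689 and 1742 bp over all genes. At each time 18 of the 28, 31 and 31 peaks were wider than the upper quartile of all genes. Kruppel-like genes supplied 10, 9 and 9 of these, and their median widths were 2743, 2934 and 3127 bp. Sox genes supplied 2 of their 4 peaks uncut, 2 of 6 at 6 dpa and 1 of 5 at 9 dpa, with median widths of 1945, 1989.5 and 1924 bp. The breadth extended into the gene: the median downstream edge lay 1492.5, 1688 and 1658 bp past the TSS, against 1012, 1020 and 1061 bp over all genes. The summit lay inside the gene in 26 of 28, 29 of 31 and 28 of 31 peaks, against 80.4%, 81.0% and 81.0% of all genes.

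**Figure D3:**
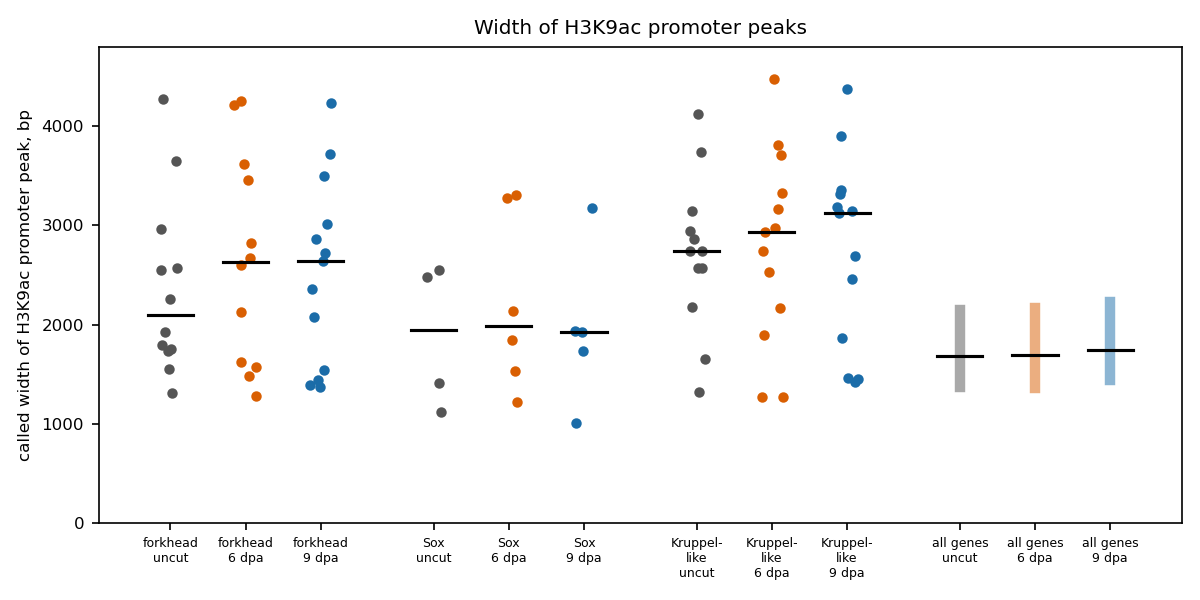
Called width of H3K9ac promoter peaks in bp (y axis, from 0) by family and time, with 1 point per gene and black lines at medians; for all genes the thick bars span the lower to the upper quartile. Most forkhead and Kruppel-like points lie above the medians of all genes, which are 1679, 1689 and 1742 bp.

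Duplicated genes, which zebrafish keep from an ancient genome duplication, formed 10 pairs among the 37. In 5 pairs (foxc1, foxo3, klf11, klf2 and klf7) H3K9ac was called at both promoters in all 3 libraries. In the other 5 (foxp1, klf12, sox11, sox4 and sox9) the copies differed in which libraries called one. Where both copies of klf12 had a peak, at 6 dpa, klf12a had 32.8 and klf12b 60.2 tags per kb, a log2 ratio of klf12a to klf12b of -0.88 (-1.33 to -0.44). At 6 dpa only, the interval of the per-kb ratio of the a to the b copy also excluded 0 for klf11, klf7 and sox4. These log2 ratios were 0.29 (0.02 to 0.55), -0.56 (-1.05 to -0.09) and 0.34 (0.04 to 0.64). For foxc1 and foxo3 the counting interval of the per-kb ratio included 0 in every library, the log2 ratio of foxo3a to foxo3b being -0.25 uncut, -0.12 at 6 dpa and 0.02 at 9 dpa.

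H3K9me3 promoter peaks stood at 2 of the 37 genes in the uncut library, 4 at 6 dpa and 3 at 9 dpa, against 1.97%, 4.6% and 1.83% of all genes. No forkhead gene had one. The uncut pair was sox9a and sox9b, duplicates of the gene for SOX9, which controls cartilage formation and is also known from heart valves. These 2 were called in all 3 libraries, against 1.1% of all genes, and 4 of the 37 were called in at least 1 library, against 5.57%. At 6 dpa against uncut klf7a and sox4b gained a peak (background 3.24%) and none lost one (0.606%). At 9 dpa against uncut klf7a had gained one (0.646%) and none had lost one (0.785%), and at 9 dpa against 6 dpa none was gained (0.447%) and sox4b lost its peak (3.22%).

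The gene sox9a (chromosome 12, 1927595 to 1931236) had 187 H3K9me3 tags at its promoter in the uncut library, 177 at 6 dpa and 161 at 9 dpa. The duplicate sox9b (chromosome 3, 62343296 to 62348422) had 139, 105 and 116. All H3K9me3 tags given here are raw, and the uncut H3K9me3 library had the lowest background and the fewest tags in peaks. The course of these tags over the times therefore cannot be read as a constant or a falling mark. Each gene had a second H3K9me3 peak toward its 3′ end with more tags, 267, 186 and 264 in sox9a and 228, 202 and 205 in sox9b, so that both ends of both genes were marked in all 3 libraries. The promoter summits kept to 327 to 383 bp past the TSS in sox9a and 323 to 374 bp in sox9b. The scores of the 3′ peaks ran from 423 to 922. Local density recovered from score and tags was 44.8 to 53.2 reads per kb at the sox9a peaks and 39.3 to 45.3 at the sox9b peaks. The library backgrounds were 4.10, 10.8 and 9.24. This density contains the peak's own tags, and peaks with this many tags raise it themselves. It therefore cannot describe the region around the peaks.

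Both marks met at sox9a. Its H3K9ac promoter peak was small, 60 tags in the uncut library, 47 at 6 dpa and 56 at 9 dpa, with scores of 61, 67 and 95, and its summits lay within 91 bp of the H3K9me3 summits in any pairing of libraries. Its H3K9ac tags were fewer than its H3K9me3 tags at each time, although tags of different marks are not on a shared scale. The gene sox9b had no H3K9ac promoter peak, but in uncut hearts an H3K9ac peak of 56 tags lay over its 3′ end, its summit 29 bp from that of the uncut H3K9me3 peak. Over all genes, both marks were called at the same promoter in 1.55% of genes uncut, 4.28% at 6 dpa and 1.51% at 9 dpa.

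**Figure D4:**
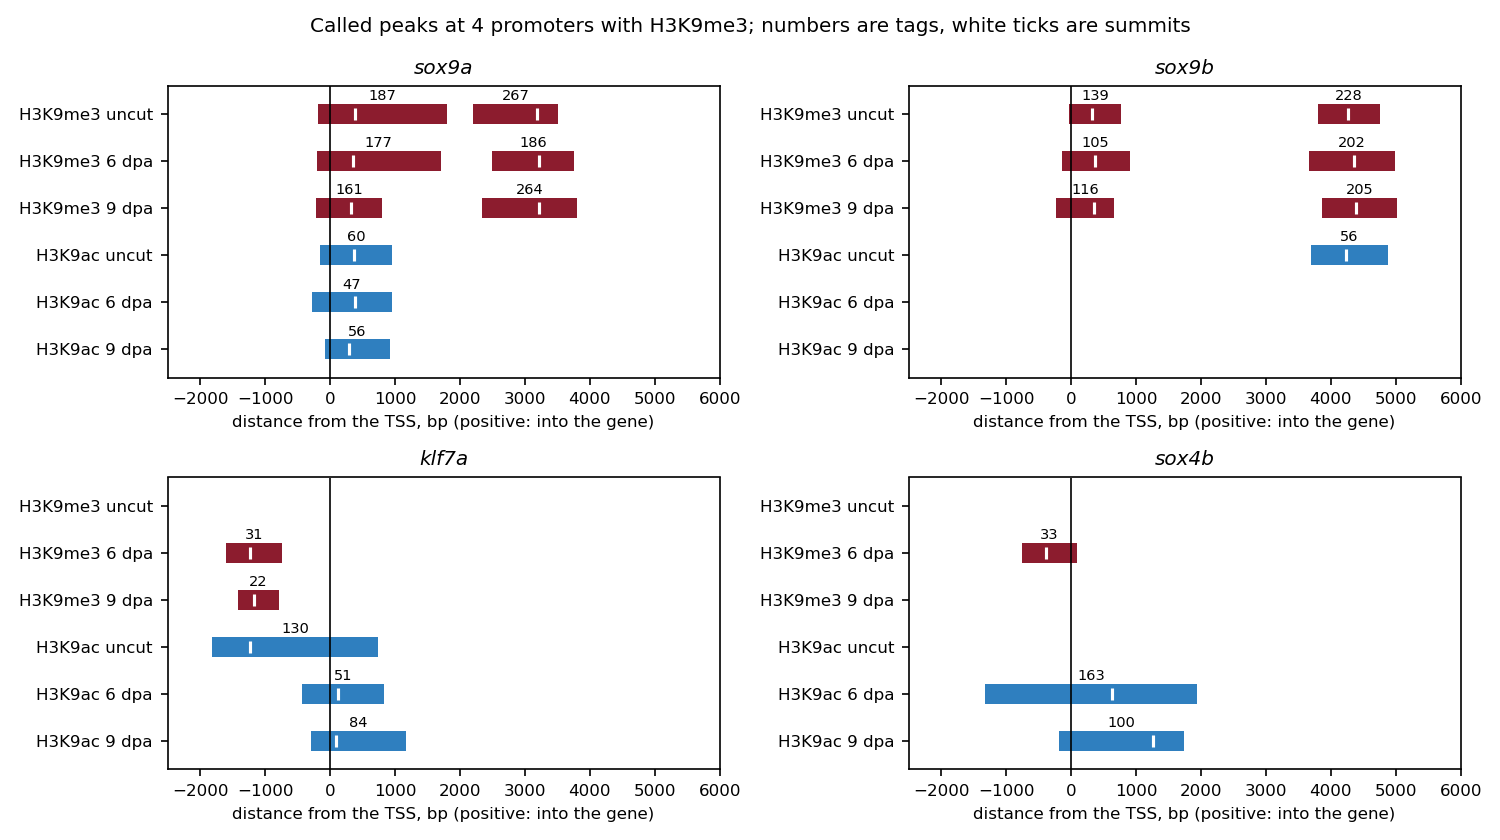
Called H3K9me3 (red) and H3K9ac (blue) peaks around the TSS of 4 genes (x axis, distance from the TSS in bp), 1 row per library; bars span the peak, numbers are tags and white ticks are summits. The sox9 genes carry H3K9me3 at both ends in every library, and the uncut H3K9ac summit of klf7a lies over its later H3K9me3 peaks.

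At klf7a H3K9me3 was called at 6 and 9 dpa where uncut hearts had their H3K9ac summit. No H3K9me3 promoter peak was called in the uncut library, 31 tags at 6 dpa and 22 at 9 dpa were called, and these peaks lay between positions -1607 and -737 bp from the TSS. The 6 dpa H3K9me3 summit was at -1234 bp, 1 bp from the uncut H3K9ac summit. Both peaks were weak, with scores of 62 and 65. The uncut H3K9me3 library had the lowest background, 4.10 reads per kb, and the fewest tags in peaks; the part of this in the uncut absence was not tested. At sox4b a peak of 33 tags was called at 6 dpa only, from -760 to 90 bp relative to the TSS, with a score of 81; H3K9ac was called at this promoter at 6 and 9 dpa.

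Beyond promoters, peaks were sought in the genes and 10 kb around them. With promoters included, 8 genes had any H3K9me3 peak. At 4 of them, sox9a, sox9b, klf7a and foxn1, summits of both marks coincided within 150 bp. Summits were paired across libraries of any time. The share over all genes is not given here, so this count cannot be read as particular to these genes. In an intron of klf7a, with summits 74749 to 74788 bp past the TSS, H3K9ac peaks of 36 tags in uncut hearts and 37 at 9 dpa met H3K9me3 peaks of 15 and 35 tags at the same times. These tags are raw, and the H3K9me3 background was 4.1 reads per kb uncut and 9.24 at 9 dpa. The 15 and 35 tags therefore cannot be read as a rise. In an intron of foxn1 an uncut H3K9ac peak of 31 tags and a 9 dpa H3K9me3 peak of 16 tags had summits 18 bp apart. The other H3K9me3 peaks outside promoters were at foxk2, foxp4 and sox11a. Those at foxk2 lay outside the gene, with 57 tags uncut and 59 at 6 dpa and scores of 137 and 126. Small peaks lay in an intron of foxp4 (18 tags at 9 dpa) and at the 3′ end of sox11a (20 tags at 9 dpa).

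The forkhead genes foxp1b and foxp3a had no promoter peak but had H3K9ac nearby. An H3K9ac peak of 152 tags in the uncut library, 177 at 6 dpa and 193 at 9 dpa stood upstream of foxp1b (chromosome 6, 43604605 to 43885160), its near edge at -6613, -6601 and -6595 bp from the annotated TSS, with scores of 317, 249 and 353. This peak was called in all 3 libraries, with 94.4, 65.4 and 96.0 tags per kb. At foxp3a (chromosome 8, 25697182 to 25710403) a peak over the 3′ end had 134, 185 and 160 tags and is also annotated to the neighbour zgc:66430. Another peak, upstream of foxp3a, had 61 tags at 6 dpa and 80 at 9 dpa and was not called in uncut hearts. Intronic H3K9ac peaks were also called in foxp1b (62 tags, at 9 dpa only), foxo1a, foxo3b, foxp2 and klf12b, with 33 to 203 tags.

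Genes that control or partner these factors were counted in the same way. Of the insulin, Akt and 14-3-3 genes listed as FoxO regulators and partners, 16 of 24 were annotated and 15 had an H3K9ac promoter peak at every time. The FoxO-phosphorylating kinase gene sgk1 had 448 tags in the uncut library, 696 at 6 dpa and 683 at 9 dpa, and mdm2, a ubiquitin ligase gene, had 179, 289 and 297. Relative to the median gene, their log2 changes at 6 dpa over uncut were 0.52 and 0.58, and per kb 0.47 and 0.18. At 9 dpa over uncut they were 0.39 and 0.51, and per kb -0.10 and 0.11. Neither gene reached 1.5-fold over uncut. At 6 dpa against uncut 1 of the 15, ywhaqb of the 14-3-3 proteins, was 1.5-fold higher with 151 tags at 6 dpa against 90 uncut (background 3.46%). Its peak was wider at 6 dpa, 2201 bp against 1453 bp, and its log2 change per kb was 0.07. None of the 15 was 1.5-fold lower (background 7.14%), and their median log2 change was 0.14. Between 9 and 6 dpa ywhabb, also of the 14-3-3 proteins, was 1.5-fold higher at 9 dpa with 126 tags against 73 (background 5.42%). The kinase gene akt3a was 1.5-fold lower with 92 against 141 (background 1.81%). Per kb the log2 changes of ywhabb and akt3a were 0.57 and -0.85. Of the Wnt, Notch and HMG genes listed with Sox, 14 of 19 were annotated, and 13, 13 and 12 had a peak; lef1 had one at 6 dpa only (32 tags) and tcf7 in uncut hearts only (57 tags). In this list rbpjb, a Notch-pathway DNA-binding factor gene, was 1.5-fold higher at 9 dpa, with 160 tags against 90 uncut (background 3.08%). Its log2 change per kb was 0.32. Of the Kruppel-like regulators 12 of 27 were annotated, and 9, 9 and 10 had a peak; wt1a had one at 6 dpa only (46 tags), egr1 at 9 dpa only (59 tags), and mef2ca, a cardiac transcription factor gene, had 32 tags uncut, none at 6 dpa and 50 at 9 dpa. Over all genes the shares with a peak were 82.8%, 86.9% and 85.4%.

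A few known target genes of the families gained a peak; over all genes 5.95% gained one at 6 dpa and 4.64% at 9 dpa over uncut. Of 21 FoxO targets 19 were annotated, and 15 had an H3K9ac promoter peak in the uncut library, 18 at 6 dpa and 18 at 9 dpa. The 3 gained at both later times were igfbp1a, an insulin-like growth factor binding protein gene and a textbook FoxO target, with 0, 254 and 266 tags, cited2 with 0, 80 and 112, and tek, an endothelial receptor gene, with 0, 48 and 58. A listed gene counts as annotated only if some list ties a peak to it, so a target can enter through the gain itself. The gains given here and below therefore cannot be read as particular to these targets. None of the 15 FoxO targets with a peak at all times changed 1.5-fold in tags at any pair of times, the cell-cycle inhibitor gene cdkn1ba coming nearest at 6 dpa with 432 tags against 270 uncut. Of 12 Sox targets 5 were annotated and dll4, a Notch ligand gene, gained a peak with 0, 88 and 108 tags. Of 17 Kruppel-like targets 6 were annotated, of which cxcr4b (0, 61 and 63 tags) and fn1b (0, 38 and 51) gained a peak. The gene s1pr1 lost its peak at 9 dpa (76, 34 and 0 tags), and over all genes 2.06% lost one against uncut. The cyclin gene ccnd1 had 158, 204 and 313 tags, with a log2 change at 9 dpa over uncut of 0.77 in tags and -0.15 per kb. Of the 2 Kruppel-like targets called in all 3 libraries, it alone was 1.5-fold higher in that comparison (background 3.08%).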

How the data were processed

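Hearts were profiled with 1 library for each of 2 marks at 3 times. Per the submitters' processing notes, the tools were MACS 1.4.2, Bowtie2 2.2.5 and DiffBind 1.16.3, on the danRer10 build; their roles, and any control library, are not given in the sources used here. Per the file headers, the authors deposited for each called peak its tag count, a score of 10 times the negative log10 of the p-value, a fold enrichment ratio, its edges and summit, and the transcripts and features it overlaps. Tags are raw and unscaled, the depth of the libraries is unknown, and a peak's tags depend on where its edges were called.

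The 37 genes and all gene and marker lists were chosen with earlier results of these data known. Peaks that overlapped the TSS by 2 kb on each side (1 bp sufficed) were assigned to a gene and summed. Log2 ratios of tags were centred on the median of 8009 genes called in all 3 H3K9ac libraries, and 95% intervals came from the exact conditional binomial distribution. A gene was called when past 1.5-fold relative to that median. Local density was solved from score and tags under a Poisson model, and its mode in a library gave the background. In all peaks under 5 kb wide with a recovered density, that density was at least the peak's own tags spread over 10 kb, so scores of wide peaks were set against a density that holds their own tags. Named genes were those with an H3K9me3 promoter peak, those with H3K9ac in some but not all libraries, those past 1.5-fold, and in each family the 3 with most tags and the 2 widest; others with intervals beyond 0 or in duplicate pairs were named after their values were seen. The calculations were tested on simulated counts. Python 3.11.15, pandas 2.3.3, numpy 2.4.6, scipy 1.17.1 and matplotlib 3.10.9 were used. Promoter sequences and motifs were not analysed here.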

Additional observations from a re-analysis of the deposited data

How the results depend on the processing

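With 1 library per mark and time, no replicate could be left out, and depth limits what a missing peak means. No paired analysis was possible because each group holds 1 library. Presence counts under a 1 kb window, lists of equal length, summits inside the window or the first TSS stayed within 1.5 times. With a 5 kb window, 1 gene was absent at 6 dpa and present uncut and 2 were absent at 9 dpa and present uncut. With scores of at least 100, 7 were present at 6 dpa and absent uncut, 2 the reverse, and 2 had H3K9me3 at 6 dpa; the Sox medians then had no gene left. In tags per kb, 0 genes passed 1.5-fold in either direction, and klf7a at 9 dpa over uncut changed sign to log2 0.041; the wider or narrower peaks make this difference by construction. Scaled to the library background, the medians for all genes of the 3 families, forkhead and Kruppel-like genes were 0.61, 0.68 and 0.60 at 6 dpa over uncut, and 0.28, 0.24 and 0.31 at 9 dpa over uncut. At 9 dpa over 6 dpa they were -0.44, -0.49 and -0.39, with Sox genes at -0.49. On this scale 15 genes passed 1.5-fold higher and 1 lower (klf7a, no longer foxp1a) at 6 dpa over uncut, 2 higher at 9 dpa over uncut, and 0 higher and 2 lower at 9 dpa over 6 dpa. With no scaling the counts were 4 higher and 1 lower, 2 higher, and 2 higher for the same comparisons, and the medians at 9 dpa over uncut 0.32, 0.27 and 0.35. The shares of all genes past 1.5-fold are not given here for these counts or for those that follow. With a 5 kb window 2 passed higher at 6 dpa over uncut, and 2 higher and 1 lower at 9 dpa over 6 dpa. With scores of at least 100, 0 passed higher and 1 lower at 6 dpa over uncut and 0 lower at 9 dpa over uncut. The cause of the other differences was not tested.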
